A study of Bos taurus with 33 samples.

Results

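This account describes 147 genes whose mean level in the endometrium of heifers was lower in pregnant than in cyclic animals by 0.4 log2 units or more on day 15 and again on day 18. They were chosen from 9155 genes with a single symbol on an Affymetrix bovine array. Each gene was represented by its brightest probe set, taken over the mean of all 33 arrays. The threshold was met by 318 genes on day 15 (3.47% of all genes) and by 583 on day 18 (6.37% of all genes), and by 163 on both days; a difference of 0.4 or higher was found for 533 genes on day 15 (5.82% of all genes) and 840 on day 18 (9.18% of all genes), and for 370 on both. The rule keeps 147 of the 163. It left out 7 whose symbols start with LOC, SLC or COL, and 9 by name (AKR1B1, EDN3, FAP, KCNMA1, OXTR, PECAM1, PLVAP, PTGR1 and TIE1). Because the differences on days 15 and 18 chose the genes, they are given below as a description without a test. Differences that the rule did not use came from other animals, in an interferon experiment and on day 12 of pregnancy. The genes were still chosen with earlier results of these data known.

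All animals were Bavarian Simmental heifers whose cycles had been synchronised with 1 injection of 500 µg cloprostenol, a prostaglandin F2α analogue, and each gave 1 array. For the biopsies, a lipid rod releasing human interferon alpha (IFNA) was placed in the uterine horn of 3 heifers on day 14 of the cycle. A rod without IFNA (placebo) was given to 3 others, and phosphate-buffered saline (PBS) to 3 more. About 6 biopsies per animal were taken from the caudal part of the horn on the side of the corpus luteum on day 16. In the pregnancy experiment heifers were inseminated on day 1 with thawed semen of 1 bull, or received the supernatant of centrifuged sperm in place of sperm (cyclic animals). Intercaruncular endometrium, the glandular tissue between the sites of placental attachment, was taken at slaughter on day 12 (5 pregnant and 5 cyclic), day 15 (3 and 3) or day 18 (4 and 4). The horn was sampled distally on day 12, medially on day 15 and caudally on day 18, so day and place in the horn cannot be told apart.

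In ruminants the elongating conceptus secretes interferon tau, a type I interferon. It acts on the endometrium and keeps the corpus luteum from regressing, so that progesterone continues to be made. Type I interferons are known chiefly for the genes they raise through STAT and IRF transcription factors. IFNA binds the same receptor as interferon tau, and the biopsy experiment sets its effect, without a conceptus, beside that of pregnancy.

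Values are log2 expression levels per probe set, and differences are log2 differences ± the standard error of the fit. The interferon label was checked with ISG15, the ubiquitin-like modifier that interferon induces. ISG15 was higher with IFNA by 4.91 ± 0.227 against placebo and by 5.07 ± 0.227 against PBS. In pregnant animals it was higher by 5.24 ± 0.378 on day 15 and by 4.90 ± 0.327 on day 18, and its day 12 difference of 0.53 ± 0.292 did not pass the test (limma, adjusted p = 0.805). The median standard error of a difference over all probe sets was 0.149 in the biopsy comparisons, 0.0865 on day 12, 0.112 on day 15 and 0.0968 on day 18. The arrays formed 4 sets that appeared to have been normalised apart (the biopsies and each slaughter day), so group means were compared only within a set. The variance of the pregnancy fit was pooled over the 3 days; with the day 12 arrays alone, as with all, 0 of the 147 genes passed on day 12. The 3′ minus 5′ signal of GAPDH, which grows with RNA breakdown, was 1.66 to 2.98 with IFNA, 1.03 to 3.87 with placebo and 1.59 to 3.30 with PBS, against -0.16 to 0.56 at slaughter, so it overlapped between the biopsy groups. In bulk tissue fewer cells of a type and less RNA per cell cannot be told apart.

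Among the 147 genes the median difference between pregnant and cyclic animals was -0.54 on day 15 and -0.61 on day 18, beside -0.02 on both days over all 9155 genes. The lowest values were -1.88 for MPTX1 on day 15 and -1.38 for MPPED2 on day 18. On day 15, 10 of the genes reached -1 or lower, and on day 18, 9 did; MPTX1 and PRSS16 did so on both days. Below, a percentage of all genes beside a count of the 147 is the share of all 9155 genes that met the same criterion. Every pregnant animal lay below every cyclic animal for 101 of the 147 on day 15 (68.7%, against 14.0% of all genes). The same held for 88 on day 18 (59.9%, against 11.7% of all genes) and for 64 on both days (against 5.07% of all genes). These counts follow from the choice of genes. Just inside the threshold lay SMARCAD1 (-0.40 on day 15 and -0.42 on day 18), KIF3A (-0.40 on both days) and TTLL3 (-0.45 and -0.40). Just outside lay RPE (-0.46 and -0.40), MSTN (-0.40 and -1.07) and RABEP1 (-0.39 and -0.47), each of which missed the threshold narrowly on 1 of the days. Only 1 of the genes, SPAG6, had a mean below 5 over all arrays.

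**Figure D1:**
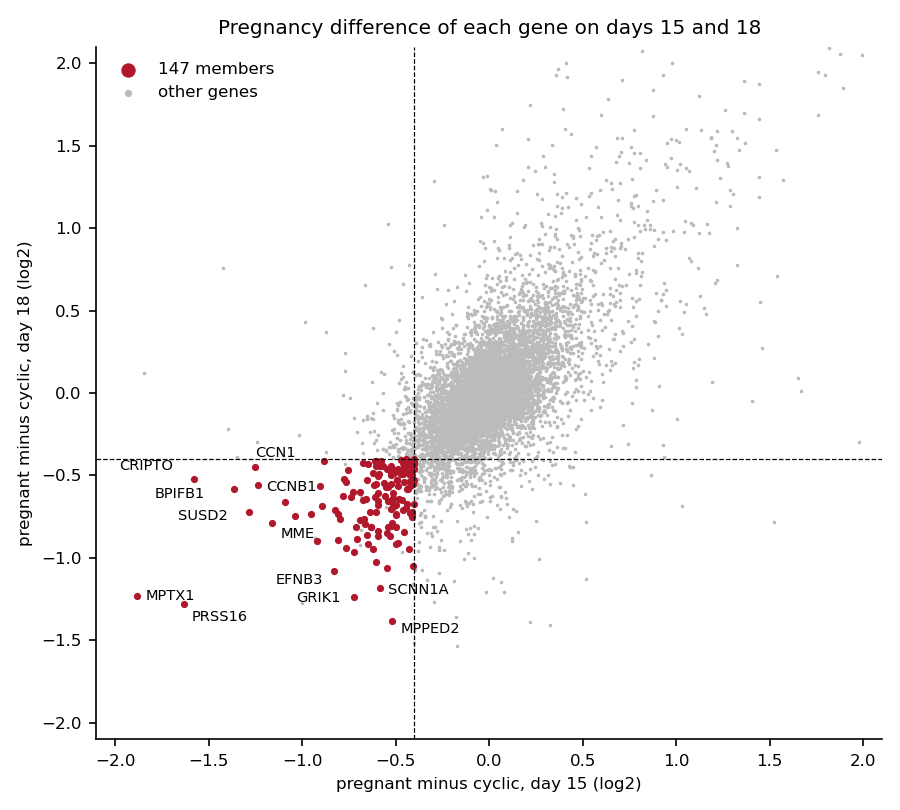
Difference between pregnant and cyclic group means for each gene on day 15 (x axis, log2) and day 18 (y axis, log2), with the 147 chosen genes in red, all other genes in grey and dashed lines at -0.4; 52 other genes lie outside the axes. MPTX1 and PRSS16 are the 2 genes at -1 or lower on both axes, whereas CRIPTO, BPIFB1 and CCN1 are lower on day 15 than on day 18 and MPPED2 and SCNN1A lower on day 18.

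The genes were sorted into 12 groups by what their products are known to do. The 10 products that are secreted or act in defence were MPTX1, PRSS16, BPIFB1, SSLP1, SERPINI1, PIP, AZGP1, CPN1, MASP2 and LEAP2. MPTX1 encodes a mucosal pentraxin, and its levels were 7.42, 7.09 and 6.27 in pregnant animals on day 15, against 7.82, 9.04 and 9.57 in cyclic animals. On day 18 they were 7.91, 6.41, 7.22 and 6.61 in pregnant animals, against 8.49, 8.53, 8.51 and 7.55 in cyclic animals. The groups were apart on day 15 and overlapped on day 18, where 1 cyclic animal was low; the differences were -1.88 ± 0.472 and -1.23 ± 0.409. PRSS16, a serine protease best known from the thymus, was at 6.55, 6.78 and 7.44 in pregnant animals on day 15, against 7.09, 9.24 and 9.34 in cyclic animals. The groups overlapped there, and on day 18 they met at their edges, with 8.63, 6.90, 7.57 and 7.54 in pregnant animals against 8.60, 9.39, 8.77 and 9.00 in cyclic animals. PRSS16 thus differed by -1.63 ± 0.551 on day 15 and -1.28 ± 0.477 on day 18. BPIFB1, a secreted protein of the family of bactericidal/permeability-increasing proteins, was lower by 1.37 ± 0.334 on day 15, with 8.51, 8.92 and 8.86 in pregnant animals against 9.92, 10.04 and 10.43 in cyclic animals, and by 0.58 ± 0.290 on day 18.

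The 15 ligands and receptors were CRIPTO, EFNB3, CCN1, INSR, FCER1A, IL1R2, IL33, IHH, MFNG, FGFR2, RNF43, LGR4, TNFRSF25, ENPP2 and VIPR2. CRIPTO, the co-receptor for Nodal, was at 8.15, 8.44 and 8.13 in pregnant animals on day 15, against 9.07, 10.10 and 10.29 in cyclic animals, a difference of -1.58 ± 0.503. On day 18 it was at 7.30, 5.69, 7.35 and 5.29 in pregnant animals, against 6.22, 8.52, 6.30 and 6.67 in cyclic animals. These day 18 values overlap, and the mean difference of -0.52 ± 0.436 came with 1 high cyclic animal. EFNB3, a membrane-bound ligand of Eph receptors that guides contacts between cells, was more even. It measured 6.99, 7.25 and 7.10 in pregnant animals on day 15, against 8.15, 7.78 and 7.90 in cyclic animals, and 7.69, 6.90, 6.67 and 7.07 in pregnant animals on day 18, against 7.98, 7.96, 8.35 and 8.36 in cyclic animals. Its groups did not overlap on either day (-0.83 ± 0.211 and -1.08 ± 0.183). CCN1, a matricellular protein, had a difference of -1.25 ± 0.640 on day 15, where 1 cyclic animal stood at 9.53 and the other two at 7.47 and 7.23. Several of the remaining members handle growth factor or Wnt signals: INSR is the insulin receptor, FGFR2 a fibroblast growth factor receptor, LGR4 a receptor for R-spondins and RNF43 the ubiquitin ligase that removes Frizzled receptors. Their differences ran from -0.47 to -0.59 on day 15 and from -0.49 to -0.81 on day 18. Wider lists, each with 1 of the 147, went both ways. Of 25 measured genes of FGF, EGF and IGF signalling, 1 was at -0.4 or lower and 4 at 0.4 or higher on day 15. On day 18 these counts were 4 and 3. Of 17 measured genes of Wnt signalling the counts were 1 and 2 on day 15, and 3 and 2 on day 18.

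Of the 11 genes for epithelial membrane proteins and transport (SUSD2, MME, SCNN1A, AQP4, KRT10, CLDN10, DPP4, CHP2, CYBRD1, KCNQ1 and S100G), 3 were among the 20 with the lowest mean over both days. SUSD2, a membrane protein with a sushi domain, was at 7.20, 6.95 and 7.07 in pregnant animals on day 15, against 7.66, 8.96 and 8.45 in cyclic animals. MME, the cell-surface peptidase neprilysin, was at 7.70, 7.48 and 8.18 in pregnant animals on day 15, against 9.42, 9.08 and 8.34 in cyclic animals. Both genes were apart on day 15 and overlapped on day 18, where SUSD2 differed by -0.72 ± 0.296 and MME by -0.79 ± 0.295. SCNN1A, the alpha subunit of the epithelial sodium channel, differed most on day 18, with 8.40, 7.30, 6.90 and 8.05 in pregnant animals against 9.07, 8.87, 9.11 and 8.33 in cyclic animals (-1.18 ± 0.246, groups overlapping by 1 animal). S100G, the calcium-binding protein calbindin-D9k, was the most strongly expressed of the 147 probe sets, with a mean of 12.33 over all arrays, and differed by -0.52 on day 15 and -0.48 on day 18.

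The 11 genes of blood vessels were AQP1, APOLD1, APLNR, CD93, FLT1, CDH13, CAVIN2, PPP1R16B, JCAD, VWF and SOX18. AQP1 is a water channel, APLNR the receptor for apelin, FLT1 a receptor for vascular endothelial growth factor and VWF the adhesive glycoprotein of endothelial granules. CD93 and CDH13 are surface proteins of endothelium, CAVIN2 coats caveolae and SOX18 is a transcription factor of endothelial development. Their mean level per array was 6.65 to 7.07 in pregnant animals on day 15, against 7.23 to 7.61 in cyclic animals, and 7.23 to 7.59 in pregnant animals on day 18, against 7.83 to 8.31 in cyclic animals. Single differences ran from -0.41 to -0.95 on day 15 and from -0.41 to -0.82 on day 18. The rule set the upper edge at -0.4, and the gap in mean level follows from it. The quartiles of all 147 were -0.66 and -0.458 on day 15, and -0.758 and -0.485 on day 18. APLNR was at 5.22, 5.37 and 5.42 in pregnant animals on day 15, against 6.31, 5.79 and 5.98 in cyclic animals. On day 18 APLNR was at 5.62, 6.02, 5.67 and 6.01 in pregnant animals, against 6.47, 6.61, 6.76 and 6.57 in cyclic animals, again without overlap.

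The 11 genes for matrix, adhesion and contraction were GPNMB, EFEMP1, MXRA8, CRTAP, PDLIM3, PDLIM4, SPOCK2, MMP23, AMIGO2, ITGA7 and CSRP2. CRTAP, part of the complex that hydroxylates prolines of fibrillar collagens, was at 7.44, 7.25 and 7.34 in pregnant animals on day 15, against 7.96, 7.82 and 7.84 in cyclic animals, and the groups were apart on day 18 as well (-0.53 ± 0.142 and -0.87 ± 0.123). Another 6 genes are known best from neurons or glia (GRIK1, MTURN, S100B, SNAP25, NLGN3 and STMN2). GRIK1, a subunit of kainate receptors for glutamate, was at 6.22, 6.12, 6.99 and 6.51 in pregnant animals on day 18, against 8.47, 6.93, 8.13 and 7.27 in cyclic animals, where the lowest cyclic animal lay just below the highest pregnant one. SNAP25, a component of the vesicle fusion machinery, differed by -0.78 on day 15 and -0.52 on day 18.

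The largest functional groups were metabolism, with 21 genes, and transcription and chromatin, with 16. The metabolic genes were ARSK, CA8, ACSM1, DMGDH, PPM1K, FABP7, GAMT, ACOX2, FITM2, ALDH18A1, MDH1B, AHCYL2, COQ8A, GMDS, PCYOX1, RDH16, DHTKD1, MTARC2, NPL, HSD17B11 and ALG13. ARSK, a lysosomal sulfatase, reached -1.09 ± 0.285 on day 15, and CA8, a relative of carbonic anhydrases, -0.94 ± 0.278 on day 18; neither overlapped between groups on either day. The transcription group held ZBTB44, SPDEF, HOXB3, HOXB4, IRX3, LMCD1, MSX1, PATZ1, DLX5, SETD7, PHF10, MED25, CITED4, FOXO4, SMARCAD1 and BEND5, among them the homeobox genes HOXB3, HOXB4, IRX3, MSX1 and DLX5. SPDEF, an ETS factor of secretory epithelia, was at 5.93, 5.84, 6.12 and 5.83 in pregnant animals on day 18, against 6.88, 6.93, 6.51 and 6.38 in cyclic animals. HOXB3 and HOXB4 are separated by 2 other protein-coding genes, and KCNQ1 lies directly beside CDKN1C, so these pairs share a neighbourhood.

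Of 13 genes for signalling inside the cell (EGLN3, ARHGEF4, NKIRAS1, STRAP, PPP2R2B, PLCL2, RRAGB, RCAN3, PPP1R1B, EEF2K, MRAS, PPP1R13L and ADCY8), EGLN3, a prolyl hydroxylase that marks hypoxia-inducible factor for breakdown, was the lowest at -0.92 on day 18. The 5 genes of the cell cycle and DNA were CCNB1, CENPT, TYMS, CDKN1C and DDB1. CCNB1, the mitotic cyclin B1, was at 7.12, 7.53 and 7.82 in pregnant animals on day 15, against 7.98, 8.86 and 9.34 in cyclic animals. On day 18, 3 of the 4 cyclic animals stood between 7.90 and 7.98, close to the pregnant values of 7.46 to 8.16, and the fourth was at 9.32. CDKN1C, an inhibitor of cyclin-dependent kinases and so opposite in role to cyclin B1, was lower as well (-0.49 and -0.56). A list of 21 measured cell cycle genes, 2 of them among the 147, had medians of -0.06 on day 15 and 0.19 on day 18. On day 15, 2 of the 21 were at -0.4 or lower and 1 at 0.4 or higher. On day 18, 2 were at -0.4 or lower and 6 at 0.4 or higher.

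The 10 genes of cilia and flagella were IQCA1, ZMYND12, SPAG6, ARL3, CSPP1, SPA17, CABYR, ATAT1, TTLL3 and KIF3A. IQCA1, an axonemal protein, was at 8.00, 6.40, 7.83 and 7.74 in pregnant animals on day 18, against 8.13, 8.98, 8.23 and 8.87 in cyclic animals. A list of 10 markers of ciliated epithelium had 3 genes on the array with a single symbol, CCDC39, TEKT1 and SPAG6, of which SPAG6 is also one of the 147. Their mean level on day 15 was 5.93 to 6.40 in pregnant animals, against 5.82 to 6.85 in cyclic animals, with 1 of the 3 at -0.4 or lower. On day 18, with 3 of 3 at -0.4 or lower, it was 5.17 to 6.97 in pregnant animals, against 6.52 to 7.68 in cyclic animals. Their part in the values of the cilia genes was not tested. The other 18 genes were MPPED2, GAT, SH3BGR, TMED6, MAGEH1, HSPB8, ABITRAM, TMEM132A, TPD52L1, MBTPS1, LRRC51, CPNE8, PRR15L, DZIP3, IPO11, NAP1L5, MAGEF1 and TMEM130. MPPED2, a metallophosphoesterase, was the lowest of all on day 18, at 8.85, 8.11, 7.93 and 8.66 in pregnant animals against 9.54, 10.08, 9.79 and 9.67 in cyclic animals, whereas on day 15 its difference was -0.52 ± 0.203.

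**Figure D2:**
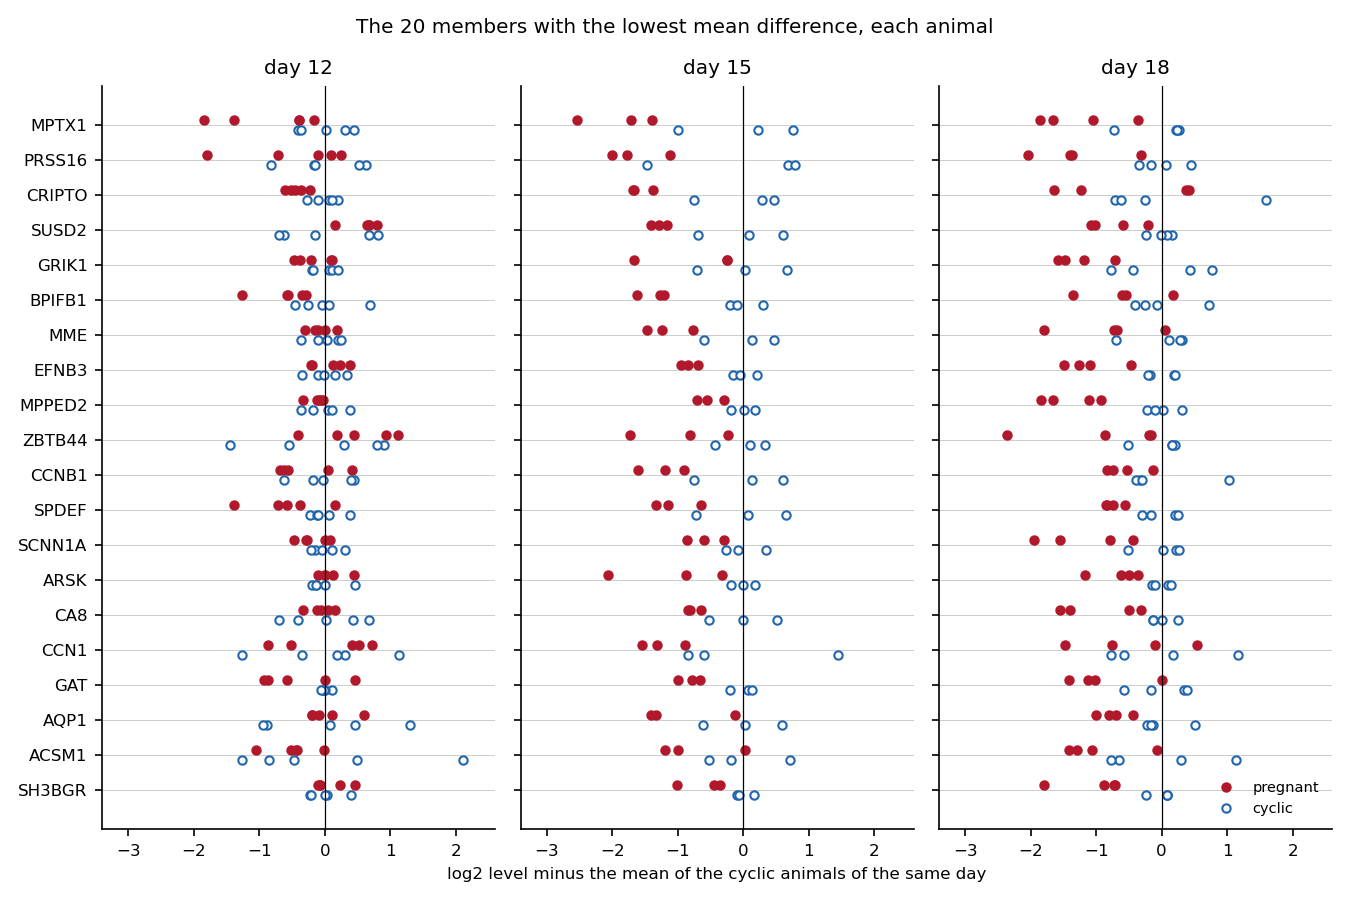
Level of each animal (points) for the 20 genes with the lowest mean of the day 15 and day 18 differences, as log2 distance from the mean of the cyclic animals of the same day (x axis); pregnant animals are filled red and cyclic animals open blue, with days 12, 15 and 18 in separate panels. On days 15 and 18 the red points lie mostly left of 0 by construction of the list, with single animals apart in CRIPTO, CCNB1 and ZBTB44, whereas on day 12 both colours mix for most genes.

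Further probe sets of the same genes were not read by the rule but come from the same arrays and the same contrast, so they are given as a description. Of the 147 genes, 52 had 80 further probe sets. Among these, 58 were lower in pregnant animals on both days, 22 of them by 0.4 or more on both. Another 16 were lower on 1 day only, and 6 were higher on both. Among the 4137 further probe sets of all genes the shares were 32.4%, 1.21%, 38.0% and 29.0%, in the same order. The median of the 80 was -0.16 on day 15 and -0.32 on day 18, closer to 0 than the medians of the chosen probe sets. Probe sets that went the opposite way on both days belonged to DHTKD1 (0.40 and 0.22), AQP1 (0.16 and 0.15), ABITRAM (0.10 on both days), KCNQ1 (0.07 and 0.05) and MASP2 (0.03 and 0.06). AQP1 also had another probe set that was lower on both days (-0.69 and -0.70).

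After all 24 arrays of the pregnancy experiment had been quantile normalised together, the levels could be set side by side across days, as a description only. In pregnant animals the median of the 147 genes was lower on day 18 than on day 12 by 0.66, and 104 genes were lower by 0.4 or more. In cyclic animals the median difference was -0.05, with 40 genes lower and 23 higher by 0.4 or more. Over all genes the medians were 0.03 in pregnant and 0.03 in cyclic animals. The gap between pregnant and cyclic animals follows from the rule, which chose the genes by their day 18 difference. Day and place in the horn cannot be told apart here either. The functional groups differed in their day changes. Vessel genes had a median of -0.57 between day 12 and day 18 in pregnant animals and 0.25 in cyclic animals. The secreted and defence genes were lower on day 18 in both, by 1.42 in pregnant and 0.75 in cyclic animals.

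With IFNA against placebo the question was whether an interferon given without a conceptus changed the same genes. More of the 147 genes lay below than above 0, but none passed the threshold. CCN1, SNAP25, GPNMB, APLNR and CRTAP had the lowest differences (-1.26 to -1.09), and EFNB3 came closest to the threshold (-1.03 ± 0.195, adjusted p = 0.0574 in limma). The median of the 147 was -0.17, beside -0.01 over all genes, and 102 of the 147 were below 0 (51.7% of all genes) and 45 above (47.4% of all genes). Differences of -0.4 or lower were found for 42 of them (4.62% of all genes) and of 0.4 or higher for 6 (6.11% of all genes). Every IFNA animal lay below every placebo animal for 25 (4.99% of all genes) and above for 4 (6.87% of all genes). In limma, with Benjamini-Hochberg adjustment over 24016 probe sets, 0 of the 147 passed in either direction (0.0218% of all genes lower and 1.11% higher); at an unadjusted p below 0.05, 29 were lower (3.82% of all genes) and 3 higher (6.22% of all genes).

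The named genes show how the animals lay. EFNB3 measured 7.24, 6.62 and 7.11 with IFNA and 8.19, 8.03 and 7.85 with placebo, so the groups were apart. CRTAP measured 7.73, 6.96 and 7.77 with IFNA and 8.76, 8.68 and 8.28 with placebo, also apart (-1.09 ± 0.219, adjusted p = 0.0731). CCN1 was at 9.20, 7.73 and 8.45 with IFNA and 10.70, 8.81 and 9.64 with placebo, which overlapped (-1.26 ± 0.483, adjusted p = 0.488). SNAP25 was apart, at 6.24, 6.70 and 6.18 with IFNA and 7.03, 8.56 and 7.08 with placebo, where the placebo spread came from 1 animal (-1.18 ± 0.380, adjusted p = 0.354). GPNMB, a transmembrane glycoprotein, was apart at 7.67, 8.49 and 7.33 with IFNA and 9.35, 8.93 and 8.63 with placebo (-1.14 ± 0.502, adjusted p = 0.589). Leaving out 1 IFNA or placebo animal at a time left 0 or 1 gene past the threshold, and moved the median of the 147 between -0.28 without the first placebo animal and -0.05 without the second. With arrays weighted by their quality the median was 0.015 and 6 genes passed. APLNR passed without the first IFNA animal and SH3BGR without the third placebo animal.

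A few of the genes lay higher with IFNA than with placebo. ZBTB44, a zinc finger protein, was at 10.13, 10.34 and 9.61 with IFNA, 8.77, 7.28 and 5.99 with placebo and 7.62, 10.54 and 9.53 with PBS. Its difference of 2.68 ± 0.809 against placebo (adjusted p = 0.306) thus stood beside 0.80 ± 0.809 against PBS, and its levels spread by more than 2 log2 units in both control groups. PPM1K, a mitochondrial phosphatase of branched-chain amino acid breakdown, differed by 0.57 from placebo, HOXB3 by 0.57, the antimicrobial peptide LEAP2 by 0.56 and IL1R2, the decoy receptor for interleukin 1, by 0.46. None of these passed the threshold. HOXB3 measured 9.06, 9.19 and 8.95 with IFNA and 8.35, 8.69 and 8.46 with placebo, which were apart, but 8.96, 8.67 and 9.36 with PBS.

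**Figure D3:**
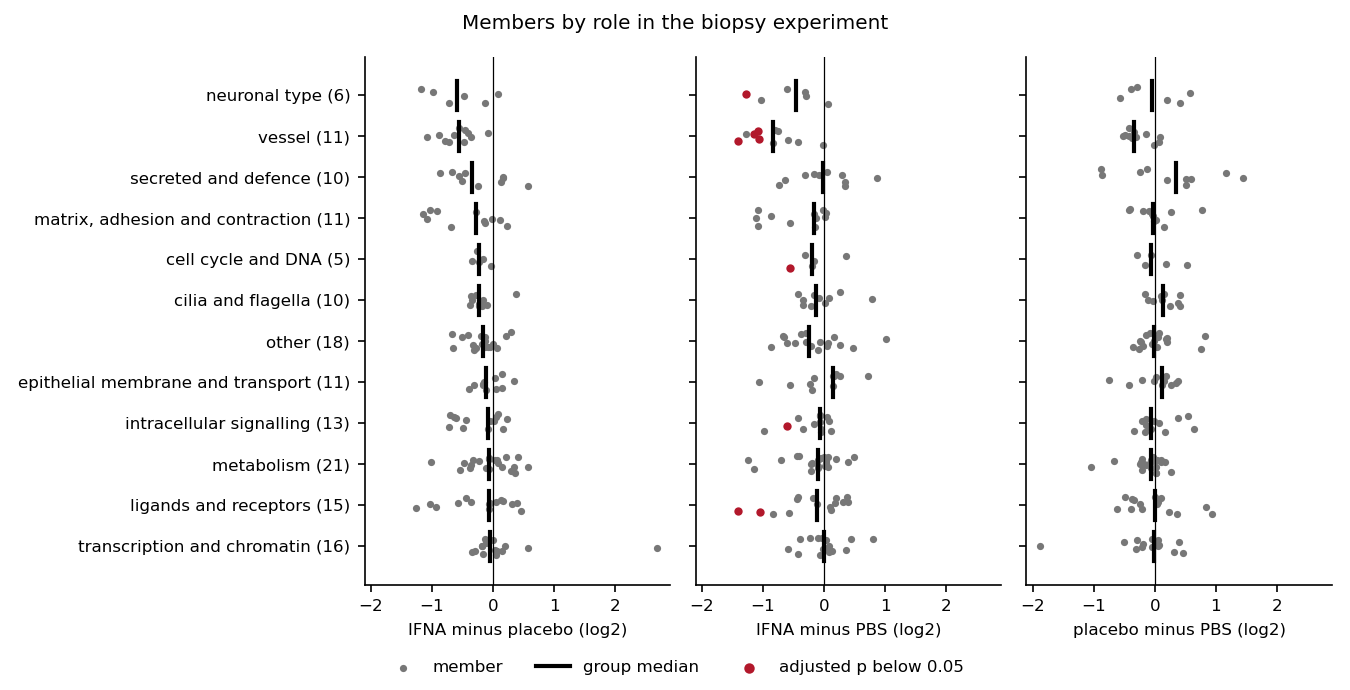
Differences of the 147 genes by functional group (rows, number of genes in brackets) for IFNA minus placebo, IFNA minus PBS and placebo minus PBS (panels, log2 on the x axis); points are genes, black bars group medians and red points genes with an adjusted p below 0.05 in limma. All 11 vessel genes lie left of 0 in the first 2 panels and their median is -0.35 for placebo minus PBS, while red points occur only in the IFNA minus PBS panel.

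Against PBS, 9 of the 147 genes were lower past the threshold with the IFNA rod and none was higher. They were the cytokine IL33, the ephrin EFNB3, the vessel genes CD93, CDH13, CAVIN2 and APLNR, the neuronal microtubule regulator STMN2, the Ras-like GTPase MRAS and the centromere protein CENPT. These 9 compare with 0.218% of all genes lower and 0.994% higher. This comparison shares its IFNA animals with the one above, so the 2 are not independent. It also includes any effect of the lipid rod, which the PBS animals did not receive. In 5 of the 9 genes every placebo animal also lay below every PBS animal. IL33 differed by -0.61 for placebo minus PBS and by -0.44 for IFNA minus placebo (adjusted p = 0.325 in limma). For CD93 these values were -0.52 and -0.56 (adjusted p = 0.258 in limma). At an unadjusted p below 0.05, 35 were lower (5.75% of all genes) and 1 higher (5.48% of all genes). Differences of -0.4 or lower were found for 45 (6.11% of all genes) and every IFNA animal lay below every PBS animal for 38 (9.08% of all genes). The median of the 147 was -0.15, beside 0.01 over all genes, and 95 were below 0 (47.6% of all genes) and 51 above (51.6% of all genes).

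IL33, an alarmin held in the nuclei of endothelial, epithelial and stromal cells, measured 7.81, 7.98 and 8.33 with IFNA, 8.55, 8.37 and 8.52 with placebo and 9.05, 9.13 and 9.10 with PBS. Each group lay wholly below the next, and IL33 fell by 1.05 ± 0.136 against PBS (2.08-fold lower, adjusted p = 0.00775). A further IL33 probe set measured 6.96, 7.50 and 7.70 with IFNA, against 8.39, 8.44 and 8.43 with PBS, and fell as well (-1.03 ± 0.178, adjusted p = 0.0367), while another near the bottom of the scale differed by 0.16 ± 0.147. EFNB3 measured 7.24, 6.62 and 7.11 with IFNA and 8.52, 8.58 and 8.08 with PBS and fell by 1.40 ± 0.195 (2.65-fold lower, adjusted p = 0.0122). STMN2 was at 5.91, 5.61 and 6.01 with IFNA, 7.21, 6.66 and 6.61 with placebo and 6.80, 7.22 and 7.33 with PBS. The control groups of STMN2 overlapped, and both lay above all IFNA animals (-1.27 ± 0.203 against PBS, adjusted p = 0.0261).

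CD93 measured 8.40, 8.02 and 8.36 with IFNA, 8.96, 8.53 and 8.97 with placebo and 9.26, 9.49 and 9.26 with PBS (-1.08 ± 0.158 against PBS, adjusted p = 0.0164). CDH13, or T-cadherin, measured 7.51, 7.23 and 7.83 with IFNA, 8.35, 8.16 and 8.24 with placebo and 8.52, 8.94 and 8.55 with PBS (-1.15 ± 0.172 against PBS, adjusted p = 0.0187). CAVIN2 measured 9.27, 8.70 and 8.95 with IFNA, 9.81, 9.64 and 9.39 with placebo and 10.10, 9.94 and 10.05 with PBS (-1.06 ± 0.162 against PBS, adjusted p = 0.0209). In all 3 of these genes the placebo animals lay between the others without overlap. APLNR measured 6.04, 5.07 and 5.66 with IFNA, 6.84, 6.61 and 6.59 with placebo and 6.69, 7.17 and 7.12 with PBS (-1.40 ± 0.236 against PBS, adjusted p = 0.0335), with overlap between placebo and PBS; its other, dimmer probe set differed by 0.03 ± 0.142. MRAS fell by 0.60 ± 0.098 (adjusted p = 0.0288) and CENPT by 0.55 ± 0.0902 (adjusted p = 0.0293), the smallest changes of the 9 but with little spread between animals. A second, dimmer MRAS probe set differed by 0.04 ± 0.0852 against PBS. The number of genes past the threshold was 0 without the second PBS animal, 2 without the first PBS animal and also without the third, and 5 without the first, 3 without the second and 4 without the third IFNA animal. IL33 passed in all of these but the one without the second PBS animal, whereas MRAS and CENPT passed in none. EFNB3 was lost without the first or the second PBS animal. CD93, CAVIN2 and APLNR passed only without the first IFNA animal, CDH13 only without the third IFNA animal and STMN2 only without the first PBS animal. In a fit of the IFNA and PBS arrays alone APLNR (adjusted p = 0.0814), CDH13 (0.056), MRAS (0.063) and CENPT (0.0673) did not pass. With the probe sets of a gene averaged APLNR (0.128) and MRAS (0.24) did not pass. With the replicate number as a block in the fit, CD93 (0.0513), MRAS (0.0637), CDH13 (0.0777), STMN2 (0.0895), APLNR (0.1) and CENPT (0.115) did not pass.

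**Figure D4:**
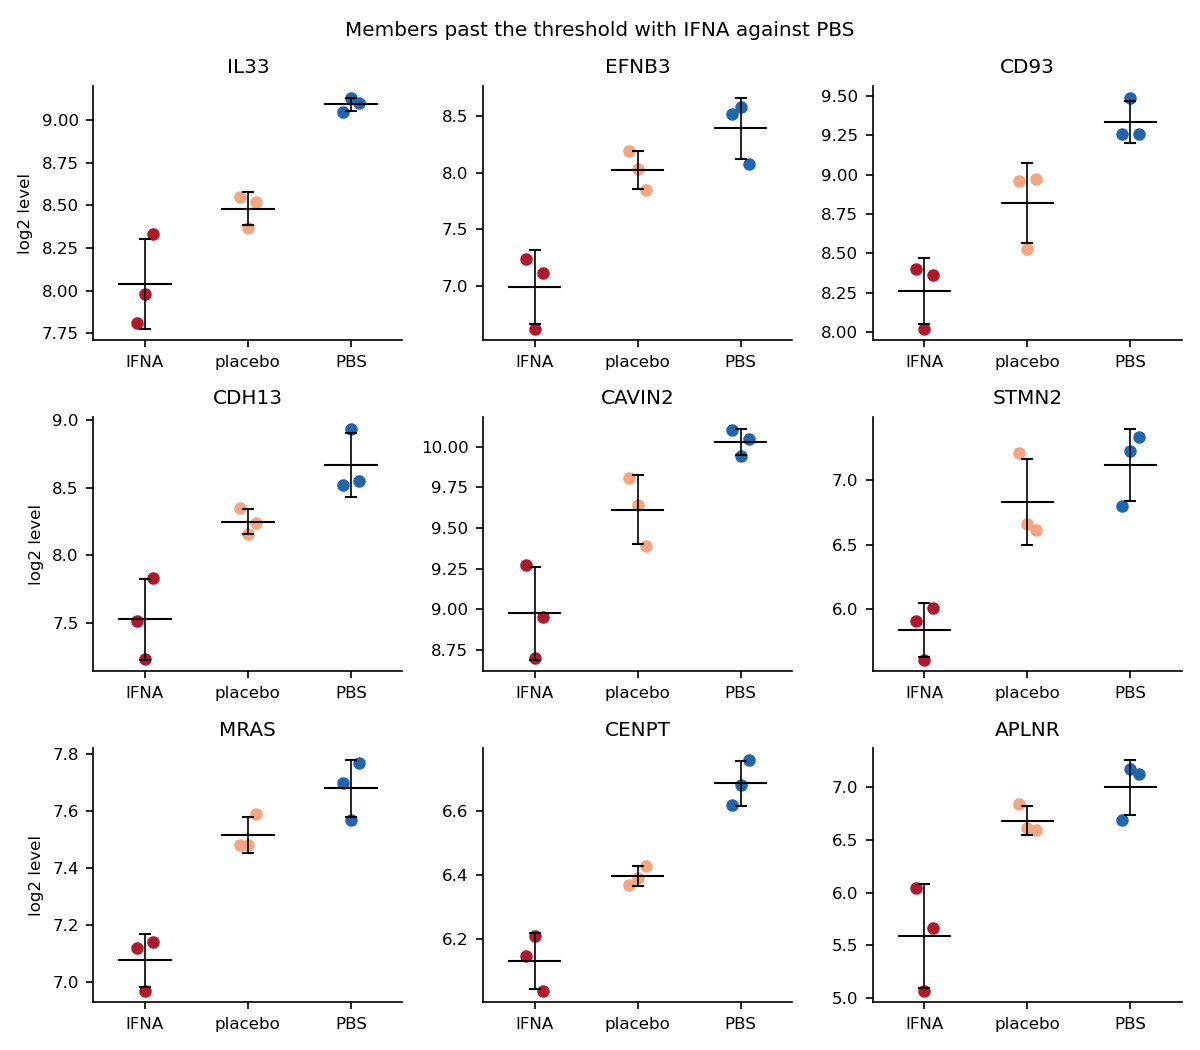
Log2 level of each animal (points) with the group mean and SD (n = 3 each) for the 9 genes past the threshold with IFNA against PBS; the groups are IFNA, placebo and PBS from left to right, and each panel has its own y axis. In every panel the 3 IFNA animals lie below all placebo and PBS animals.

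The vessel genes lay lower together with IFNA. This group was formed after the symbols were seen. All 11 were below 0 against placebo (beside 69.4% of the 147 and 51.7% of all genes), with a median of -0.56. At -0.4 or lower were 9 (beside 28.6% of the 147 and 4.62% of all genes). Against PBS all 11 were below 0 (beside 64.6% of the 147 and 47.6% of all genes), with a median of -0.83. At -0.4 or lower were 10 (beside 30.6% of the 147 and 6.11% of all genes). Their mean level per array was 7.20 to 7.61 with IFNA, 7.87 to 8.15 with placebo and 8.19 to 8.33 with PBS. None passed the threshold against placebo, and 4 passed against PBS (beside 0.218% of all genes lower). Against placebo 7 of the 11 had an unadjusted p below 0.05 in limma (beside 3.82% of all genes lower). FLT1 measured 8.34, 7.62 and 8.68 with IFNA, 8.87 to 9.19 with placebo and 9.40 to 9.61 with PBS, and just missed (-1.28 ± 0.238 against PBS, adjusted p = 0.0543). APOLD1, an endothelial protein induced by stress, differed by -0.89 ± 0.192 against placebo and -0.80 ± 0.192 against PBS, and did not pass (adjusted p = 0.0972 and 0.144). VWF, near the bottom of the scale in the biopsies, differed by -0.09 against placebo and -0.01 against PBS.

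A list of 16 endothelial markers, 14 of them measured and 2 of them (VWF and SOX18) also among the 147, was read beside this. Its mean level per array was 7.23 to 7.80 with IFNA, 7.48 to 7.86 with placebo and 7.94 to 8.19 with PBS. Against PBS 2 of the 14 fell, PLVAP (-1.43 ± 0.176, adjusted p = 0.00586) and PECAM1 (-1.01 ± 0.153, adjusted p = 0.0199), and 0 rose; both are among the genes the rule left out by name. Against placebo 0 of the 14 passed in limma (2 at an unadjusted p below 0.05). The median of the 14 was -0.11 against placebo, with 4 at -0.4 or lower. It was -0.52 for IFNA against PBS, with 8 at -0.4 or lower, and -0.36 for placebo against PBS, with 6. In each of these comparisons 0 of the 14 were at 0.4 or higher. Over all genes 4.62%, 6.11% and 2.98% were at -0.4 or lower, in the same order. CDH5, the cadherin of endothelial junctions, differed by -0.09 ± 0.184 against placebo and -0.49 ± 0.184 against PBS, and KDR, the main receptor for vascular endothelial growth factor, by -0.04 ± 0.0857 and -0.02 ± 0.0857. In the pregnancy experiment the mean of the 14 was 7.15 to 7.52 in pregnant animals on day 15, against 7.45 to 7.78 in cyclic animals, and 7.87 to 8.16 in pregnant animals on day 18, against 8.14 to 8.63 in cyclic animals. The part of these markers in the result for the vessel genes was not tested.

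Most other groups were less uniform in direction with IFNA. Over all genes 51.7% were below 0 against placebo and 47.6% against PBS, and 4.62% and 6.11% were at -0.4 or lower. All 5 genes of the cell cycle and DNA were below 0 against placebo (median -0.24, lowest -0.35), and 4 were below 0 against PBS (median -0.20). Of the 10 genes of cilia and flagella, 9 were below 0 against placebo (median -0.23, lowest -0.39) and 6 against PBS (median -0.12). Of the 11 matrix genes, 9 were below 0 against placebo, and 5 were at -0.4 or lower (GPNMB, CRTAP, SPOCK2, PDLIM3 and MXRA8). SPOCK2, a matrix proteoglycan, measured 8.11, 6.49 and 7.71 with IFNA and 8.33, 8.71 and 8.39 with placebo, where the second IFNA animal was lowest (-1.04 ± 0.363, adjusted p = 0.423). A list of 10 measured stromal markers, none among the 147, had a mean level per array of 9.59 to 9.99 with IFNA, 9.83 to 10.23 with placebo and 10.04 to 10.29 with PBS, and 5 of the 10 were at -0.4 or lower against each control; its part in the matrix genes was not tested. The same stromal markers averaged 9.23 to 9.53 in pregnant animals on day 15, against 9.02 to 9.38 in cyclic animals, and 9.69 to 9.76 in pregnant animals on day 18, against 9.69 to 9.79 in cyclic animals. Of 8 measured smooth muscle markers, none among the 147, 4 were at -0.4 or lower with IFNA against placebo (median -0.40) and 1 against PBS (median -0.18). Their mean level per array was 8.03 to 8.76 with IFNA, 8.57 to 8.98 with placebo and 8.27 to 9.33 with PBS, and their part was not tested either. Of the 6 neuronal genes 5 were below 0 against placebo and 5 against PBS. FCER1A, the alpha chain of the IgE receptor, was at 4.87, 4.91 and 4.72 with IFNA, 6.50, 5.86 and 4.95 with placebo and 5.87, 5.91 and 5.23 with PBS. A second FCER1A probe set was at 3.92, 3.78 and 4.50 with IFNA, 7.02, 6.43 and 4.53 with placebo and 6.73, 7.11 and 4.96 with PBS; it did not pass against placebo (-1.93 ± 0.696, adjusted p = 0.449) or PBS (-2.20 ± 0.696, adjusted p = 0.293). The third animal of each control group was low for both FCER1A probe sets. DMGDH, the mitochondrial dimethylglycine dehydrogenase, had the lowest metabolic value (-1.01 ± 0.272 against placebo, adjusted p = 0.230).

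Transcription, epithelial and metabolic genes showed no common direction with IFNA. Of the 16 genes of transcription and chromatin, 8 were below 0 against placebo and 8 above, with a median of -0.05; against PBS the same counts were found, with a median of 0.00. Of the 11 epithelial membrane genes, 6 were below 0 against placebo and 5 above, and against PBS 5 were below and 6 above. SCNN1A, among the lowest in pregnancy on day 18, measured 8.43, 8.21 and 7.78 with IFNA, 7.55, 7.78 and 8.07 with placebo and 7.07, 7.46 and 7.71 with PBS. It thus lay higher with IFNA, by 0.34 against placebo and by 0.73 against PBS, in neither case past the threshold. The metabolic genes split into 11 below and 10 above 0 against placebo. Of the secreted genes MPTX1, lowest in pregnancy, was at 9.54, 9.19 and 8.09 with IFNA, 8.03, 10.89 and 9.59 with placebo and 7.67, 6.96 and 9.57 with PBS. These MPTX1 groups overlap throughout, with differences of -0.56 ± 0.824 against placebo and 0.87 ± 0.824 against PBS.

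Placebo against PBS measured the lipid rod alone. No gene of the 147 passed in limma (0.0% of all genes in either direction), and 12 were lower (1.88% of all genes) and 2 higher (1.25% of all genes) at an unadjusted p below 0.05. Differences of -0.4 or lower were found for 17 (2.98% of all genes) and of 0.4 or higher for 18 (2.26% of all genes), so the share of the 147 past that size was above the background in both directions. The median was -0.02, with 78 genes below 0 (48.7% of all genes) and 68 above (50.5% of all genes). Every placebo animal lay below every PBS animal for 12 genes (3.94% of all genes) and above for 1 (3.01% of all genes). Of the 11 vessel genes 9 were below 0, with a median of -0.35, and the secreted and defence genes had a median of 0.35, with MPTX1 (1.44 ± 0.824) and BPIFB1 (1.16) highest. This comparison shares its placebo animals with IFNA against placebo and its PBS animals with IFNA against PBS.

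On day 12, before the conceptus secretes much interferon tau, none of the 147 genes passed the threshold between pregnant and cyclic animals (limma, 0.0109% of all genes lower and 0.0% higher). The median was -0.02, beside 0.00 over all genes, and 80 genes were below 0 (50.4% of all genes) and 67 above (48.6% of all genes). At an unadjusted p below 0.05, 11 were lower (3.92% of all genes) and 2 higher (2.86% of all genes). Differences of -0.4 or lower were found for 15 genes (1.30% of all genes) and of 0.4 or higher for 3 (0.721% of all genes). Every pregnant animal lay below every cyclic animal for 4 genes (0.776% of all genes), KCNQ1, IHH, CITED4 and KRT10, and above for 0 (0.350% of all genes); KRT10 and CITED4 were singled out after their values were seen.

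IHH encodes Indian hedgehog, which in the mouse uterus carries the progesterone signal from epithelium to stroma. It measured 8.10, 7.42, 8.13, 7.84 and 8.04 in pregnant animals on day 12, against 8.46, 8.63, 8.23, 8.54 and 8.57 in cyclic animals (-0.58 ± 0.145, adjusted p = 0.378). KCNQ1, a voltage-gated potassium channel, measured 5.60, 5.41, 5.60, 5.22 and 5.66 in pregnant animals, against 6.05, 6.00, 6.10, 5.83 and 5.91 in cyclic animals (-0.48 ± 0.119, adjusted p = 0.378), while its dimmer probe set differed by 0.12. CITED4, a transcriptional coactivator, differed by -0.33 ± 0.0949 (adjusted p = 0.476), and KRT10, a keratin, by -0.48 ± 0.153 (adjusted p = 0.553). None of the 4 was at -0.4 or lower with IFNA against either control. IHH differed by -0.06 ± 0.287 from placebo and KCNQ1 by 0.03 ± 0.383.

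Among the 15 genes at -0.4 or lower on day 12 were MPTX1, PRSS16, CRIPTO, BPIFB1, SPDEF and ACSM1, which also belong to the 20 genes with the lowest mean over the later days. MPTX1 was at 10.03, 8.36, 9.81, 8.81 and 9.80 in pregnant animals on day 12, against 10.51, 10.21, 10.65, 9.79 and 9.84 in cyclic animals (-0.84 ± 0.366, adjusted p = 0.716). SNAP25 differed by -0.66 ± 0.292 and HSPB8, a small heat shock protein, by -0.62 ± 0.277, neither past the threshold. The members with the highest values were SUSD2, CABYR and ZBTB44. SUSD2 stood at 9.48, 9.52, 9.00, 9.51 and 9.64 in pregnant animals on day 12, against 9.51, 8.22, 9.65, 8.15 and 8.69 in cyclic animals (0.59 ± 0.265, adjusted p = 0.722). CABYR, a calcium-binding protein of the sperm flagellum, stood at 6.84, 6.81, 6.35, 7.17 and 6.66 in pregnant animals, against 6.13, 6.55, 6.45, 6.00 and 6.24 in cyclic animals (0.49 ± 0.170, adjusted p = 0.616). Both genes overlapped between the groups on day 12 and were lower in pregnant animals on day 15, where they did not. The vessel genes had a median of -0.01 on day 12, with 6 of 11 below 0.

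**Figure D5:**
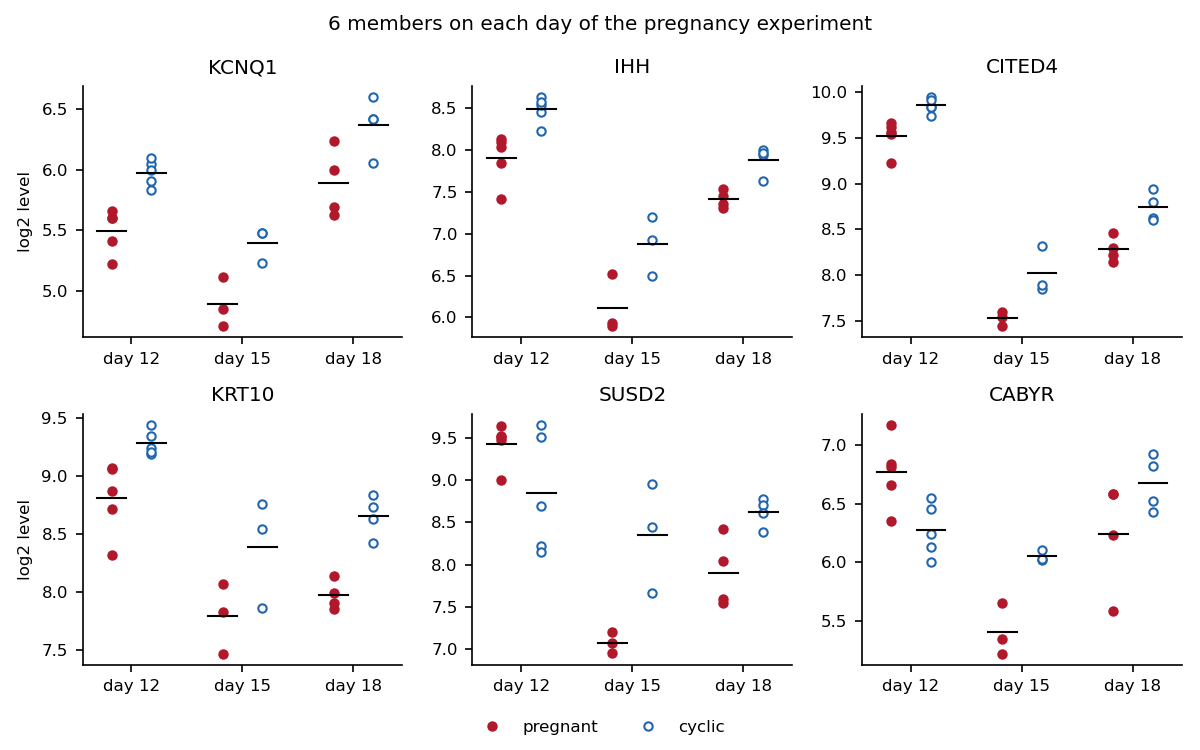
Log2 level of each animal (points) and group means (bars) for 6 genes, with pregnant animals filled red and cyclic animals open blue, on days 12, 15 and 18; each panel has its own y axis, and levels of different days were normalised apart. KCNQ1, IHH, CITED4 and KRT10 have all pregnant animals below all cyclic animals on day 12, whereas SUSD2 and CABYR have higher means in pregnant than in cyclic animals on day 12 and lower ones later.

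Lists of whole pathways around the signalling members showed no set of genes past the threshold in the tested comparisons. Of 17 measured genes of Wnt signalling, which count LGR4, 0 passed in limma against placebo, against PBS or on day 12 (0, 1 and 2 at an unadjusted p below 0.05), with medians of -0.01, -0.10 and -0.03. Of 9 measured genes of Notch and Hedgehog signalling, which count IHH, 0 passed in limma (3, 3 and 2 at an unadjusted p below 0.05), with medians of -0.06, -0.09 and 0.05. Of 26 measured genes of angiogenic signalling, which count APLNR and FLT1, APLNR alone passed, against PBS, and the medians were -0.09 against placebo, -0.28 against PBS and 0.02 on day 12. By contrast, 22 of 25 measured genes on a list of type I interferon targets rose in limma with IFNA against each control. None of the 25 is among the 147, which follows largely from the rule. In pregnant animals 23 of the 25 were higher by 0.4 or more on day 15, and 23 on day 18. Macrophage and dendritic cell markers moved with IFNA too: 3 of 10 rose against placebo (C1QB, C1QC and CSF1R) and 2 of 10 against PBS (C1QB and C1QC), with a median of 1.01 and 0.63.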

How the data were processed

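Total RNA of 33 endometrium samples, 1 per animal, was hybridised to Affymetrix bovine arrays. The deposited values are log2 expression levels per probe set that the authors made by RMA. Per the submitters' processing notes the affy package was used, without a version. Of 24128 probe sets, 112 controls were left out. GEO's platform annotation gave 1 symbol to 13292 of the remaining 24016, several to 86 and none to 10638, and 13263 were matched to RefSeq by gene ID, which also gave neighbouring genes. Group means were compared with lmFit and eBayes of limma 3.58.1 (R 4.3.3; two-sided, no covariates), in 1 fit of 9 biopsy arrays and 1 of 24 pregnancy arrays, with Benjamini-Hochberg adjustment over 24016 probe sets and a threshold of 0.05. Percentages of all genes give the share of the 9155 genes, each by its brightest probe set, that met the same criterion. The fit was tested on simulated data.

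The 147 genes and all gene lists were chosen with earlier results of these data known, and functional groups were assigned after the symbols were seen. Genes were named as the 20 lowest over both days, those past the threshold, the 5 lowest and 5 highest with IFNA against placebo, the 3 lowest and 3 highest on day 12, the first 4 of each functional group, those at the edges of the rule, and checks. Others named singly were chosen after their values were seen. Alternatives were a fit of only the 2 groups compared, another normalisation, a filter on dim probe sets, array weights, other ways to combine probe sets, a replicate block, a GAPDH covariate, pooled controls, other thresholds of the rule and leaving out each animal. The number of arrays limits the precision.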

Additional observations from a re-analysis of the deposited data

Results flagged for a closer look

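In 9 of 124 groups of 4 or 5 animals, taken over the 31 genes described by animal, 1 animal stood far from the rest by Dixon's test, and chance alone flags about 1 group in 20. Of these, 6 were cyclic animals of day 18. MPTX1 was at 7.55 in the fourth, where the nearest was at 8.49, and CDH13 at 7.33 in the same animal, where the nearest was at 8.04. The first was at 8.88 for ZBTB44, against 9.54 in the nearest, and high at 9.20 for AQP1, against 8.56 in the nearest. The second was high at 9.32 for CCNB1, against 7.98 in the nearest, and low at 8.19 for SH3BGR, against 8.50 in the nearest. In pregnant animals SH3BGR was at 6.63 in the third animal of day 18, against 7.55 in the nearest. On day 12 SUSD2 was at 9.00 in the third pregnant animal, against 9.48 in the nearest, and MPPED2 at 8.81 in the first, against 9.03 in the nearest.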

How the results depend on the processing

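With IFNA against placebo the number of the 147 genes lower past the threshold was 0, and it was 1 with a filter on probe sets with a mean below 5, 6 with array weights, 2 with GAPDH as a covariate and 11 against the mean of placebo and PBS, which adds control animals; leaving out 1 animal gave 0 to 1. The median of -0.173 became 0.015 with array weights. Against PBS the number was 9, with 18 under array weights, 4 with a replicate block and 0 to 5 without 1 animal. The median of -0.15 became -0.1 when probe sets of a gene were averaged. The rule found 343 genes at a threshold of -0.3, 75 at -0.5 and 132 to 198 without 1 animal. It found 135 with group medians, of which 98 were among the 147. The cause of these differences was not tested. A fit of only the 2 groups compared gave 7 against PBS, of which EFNB3, STMN2, CD93, CAVIN2 and IL33 belonged to the 9. With a replicate block EFNB3, CAVIN2 and IL33 of the 9 passed. Of 1041 values of named genes over these settings, 22 gained a call and 60 changed sign, 0 of them past the threshold. Another 52 lost a call. All 52 belonged to the 9 genes past the threshold against PBS, the only named genes with a call to lose. Replicate numbers were not shown to pair animals: deviations of same-numbered animals correlated from -0.337 to 0.368 in the biopsies and from 0.03 to 0.204 on day 12. With 3 animals a group and a median standard error of 0.149, small biopsy differences could not be told from the spread, and RDH16 and VWF were near the bottom of the scale there.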
